A study of Mus musculus with 4 samples.

Results

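The genes of the proteasome, the barrel-shaped protease that breaks down proteins tagged with ubiquitin, were followed in primary mouse cortical astrocytes from CD38 KO and WT animals. Members were chosen by name, as gene symbols that begin with Psm followed by a, b, c, d, f or g and a digit. The immunoproteasome genes Psmb8, Psmb9 and Psmb10 and 4 pseudogene names were left out, which gave 42 of the 55467 genes in the files. RNA came from 2 CD38 KO and 2 WT libraries, and genotype is the only difference that the labels name between them. Astrocytes of both genotypes were grown from the cortex of pups aged 1 to 3 days for 14 days in medium with 10% serum, shaken for 12 h, replated and harvested after 5 more days. Strain, sex and the way in which Cd38 was deleted are not given in the labels, so loss of Cd38 and a difference in strain cannot be told apart in any value below. Whether replicates are separate cultures or animals is not given either, so p-values measure only the spread between these libraries, which may be technical.

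In the 26S proteasome a 20S core holds the protease sites, and 19S particles on its ends recognise, unfold and feed in the substrate. The core is a stack of 4 rings, the outer ones made of alpha subunits and the inner ones of beta subunits. The 19S particle has a base, with a ring of ATPases, and a lid, which removes ubiquitin. Within a finished core, and within a finished 19S particle, each subunit is present in equal number. Mammalian cells are known to raise the genes of core and particle together when protease activity is blocked. They do so through the transcription factor NFE2L1 (also called NRF1). Chaperones that are not part of the finished enzyme help to assemble it.

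The 42 genes fell into 14 genes of the 20S core (7 alpha and 7 beta), 17 genes of the 19S particle (9 base and 8 lid), 7 assembly chaperones, the regulator Psmf1, 2 forms of other tissues (Psma8 of testis and Psmb11 of thymus) and Psmc3ip. Psmc3ip fits the name pattern but encodes a recombination factor of meiosis and no proteasome subunit, and it is kept apart below. Counted with it, 40 of the 42 genes had a mean of at least 1 FPKM and were tested, while Psma8 and Psmb11 did not reach that level. FPKM is the number of fragments per kilobase of transcript, scaled to the mapped fragments of the library, so levels of different genes can be compared.

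Cd38 had 0.0222 and 0.0222 FPKM in CD38 KO and 3.13 and 3.46 FPKM in WT. Depth was recovered from the steps of low FPKM values as about 26580000 to 28820000 fragments in each library. The cultures held the labelled cell type, since Gfap lay between 1198 and 1390 FPKM in every library and the 10 astrocyte markers summed to 2858 and 2896 FPKM in CD38 KO and 3336 and 3232 FPKM in WT. They also held transcripts of microglia and macrophages, and the 12 markers of these cells, none of them at 0 in any library, summed to 803 and 713 FPKM in CD38 KO, against 117 and 104 FPKM in WT. All 12 passed the test as higher in CD38 KO, and 2 astrocyte markers passed as higher and 6 as lower. Of all tested genes 8.0% passed as higher and 6.35% as lower. The part of these cell markers in the proteasome values was not tested. In such bulk RNA, fewer cells of a type and less RNA per cell cannot be told apart. Neuronal markers summed to 31.8 and 38.8 FPKM in CD38 KO and 33.9 and 36.1 FPKM in WT, with Rbfox3, Snap25 and Syt1 below 0.13 FPKM in every library.

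The proteasome genes were close to equal in the 2 genotypes. Of the 31 subunits of core and particle 1 passed the test, the base scaffold gene Psmd1, which fell by 14.5% in CD38 KO. Outside the subunits Psmf1, a regulator, was 16.6% higher, and the meiotic gene Psmc3ip fell by 53.5%. Together these are 3 of the 40 tested genes, or 7.5%, while 14.4% of all 13064 tested genes passed (8.0% higher and 6.35% lower). Passing means an adjusted p under 0.05 in limma on log2(FPKM + 1), where the Benjamini-Hochberg method was applied to the whole set of tested genes. At an unadjusted p under 0.05 stood 8 of the 40 genes, against 30.3% of all tested genes. The 2 libraries of each genotype did not overlap in 28 of the 40 genes (70.0%, beside 59.9% of all tested genes), with CD38 KO above WT in 10 and below it in 18.

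Changes were also small in size. The median absolute log2 change was 0.065 over the 31 subunits, against 0.12 over all tested genes and 0.096 over the 1383 tested genes whose level lay in the subunits' range of 51.1 to 166.6 FPKM. An absolute log2 change under 0.2 was found for 30 of the 31 subunits, 96.8%, against 69.5% of all tested genes and 78.6% of the genes in that range. These shares describe the genes and were given no test. Between replicate libraries the subunits differed by a median of 0.032 in CD38 KO and 0.031 in WT on the same log2 scale. The standard errors of the 31 genotype differences were 0.04 to 0.06, beside the median absolute difference of 0.065.

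**Figure D1:**
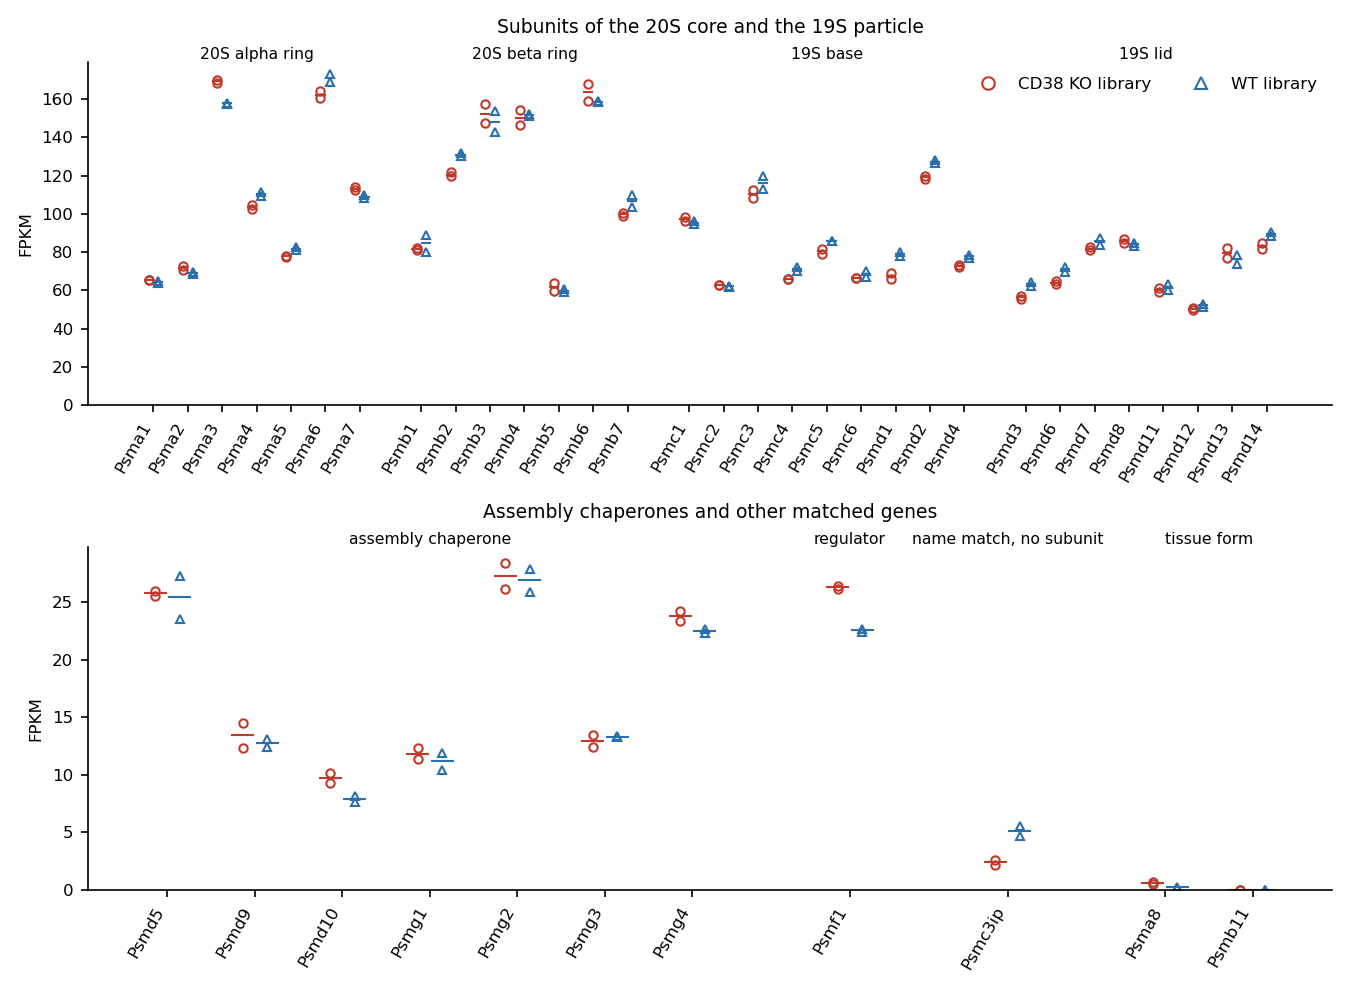
FPKM of every matched gene in each library, with CD38 KO libraries as red circles, WT libraries as blue triangles and group means as short lines (n = 2 each). Subunits of core and particle lie between 49.5 and 173 FPKM and nearly coincide between genotypes, while the assembly chaperones lie between 7.6 and 28.4 FPKM.

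The alpha ring forms the gate through which substrates enter the core. Its 7 genes summed to 759 and 766 FPKM in CD38 KO and 766 and 761 FPKM in WT, so the groups overlapped. Psma6, the alpha1 subunit and the most abundant alpha gene by its mean over the 4 libraries, had 160 and 164 FPKM in CD38 KO and 173 and 169 FPKM in WT. Psma3, the alpha7 subunit, had 168 and 170 FPKM in CD38 KO and 158 and 158 FPKM in WT, the largest difference in favour of CD38 KO among the 31 subunits. Its libraries did not overlap between genotypes, but the log2 change of 0.10 (SE 0.04) did not pass (limma adjusted p = 0.148, unadjusted 0.0419). Psma1, the alpha6 subunit and the lowest alpha gene, had 65.6 and 65.2 FPKM in CD38 KO and 63.9 and 64.9 FPKM in WT. The remaining alpha genes, Psma2, Psma4, Psma5 and Psma7, had log2 changes between -0.09 and 0.05.

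The beta ring holds the 3 kinds of protease site. Psmb5, the chymotrypsin-like beta5 subunit that the drug bortezomib blocks, had 63.8 and 59.9 FPKM in CD38 KO and 60.4 and 59.1 FPKM in WT. Psmb6, the caspase-like beta1 subunit, had 168 and 159 FPKM in CD38 KO and 159 and 158 FPKM in WT. Psmb7, the trypsin-like beta2 subunit, had 101 and 98.8 FPKM in CD38 KO and 110 and 104 FPKM in WT. Values of Psmb5 overlapped between the genotypes, Psmb6 was slightly above WT in both CD38 KO libraries and Psmb7 slightly below it. Their log2 changes of 0.05 (SE 0.05), 0.04 (SE 0.04) and -0.10 (SE 0.05) did not pass in limma (adjusted p = 0.58, 0.57 and 0.241). Exons of Psmb7 overlap those of Nek6 on the other strand, which had 151 and 160 FPKM in CD38 KO and 175 and 181 FPKM in WT. Psmb5 was the least abundant of the 7 beta genes, at 2.64-fold below Psmb6 in CD38 KO and 2.65-fold below it in WT.

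Among the beta subunits without a protease site, Psmb2, the beta4 subunit, differed most. It had 122 and 119 FPKM in CD38 KO and 130 and 132 FPKM in WT. Both CD38 KO libraries lay below both WT libraries, and the log2 change of -0.12 (SE 0.04) did not pass (limma adjusted p = 0.108). Psmb1, Psmb3 and Psmb4, the beta6, beta3 and beta7 subunits, overlapped between genotypes and had log2 changes between -0.05 and 0.04. In the whole 20S core limma called 0 of 14 genes, with 2 (Psma3 and Psmb2) at an unadjusted p under 0.05. Over all tested genes these shares were 14.4% and 30.3%. The log2 change was above 0 in 7 core genes and below 0 in 7, with a median of 0.005 beside 0.001 for all tested genes.

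The base of the 19S particle unfolds the substrate. Psmd1 (GRCm38 chromosome 1, 86064387 to 86139151) encodes Rpn2, the scaffold to which the ubiquitin receptor Rpn13 binds. Psmd1 had 65.9 and 69.2 FPKM in CD38 KO and 80.0 and 78.0 FPKM in WT. The libraries of the genotypes did not overlap, and the mean fell to 67.6 ± 2.35 FPKM in CD38 KO, against 79.0 ± 1.43 FPKM in WT (SD, n = 2 each). The log2 change was -0.22 (SE 0.05, limma adjusted p = 0.0331). Its call ended without a filter (adjusted p = 0.0895), with the replicate number as a block (0.0863), with moderation without trend (0.0939) and without WT 1 (0.143), WT 2 (0.126), CD38 KO 1 (0.157) or CD38 KO 2 (0.0917), and the alternatives gave an adjusted p of 0.0278 at the lowest and 0.157 at the highest. With 1 library left out, the genotype it came from has 1 library, which is assumed to vary like the 2 of the other genotype, and the log2 change of Psmd1 was then -0.258 to -0.188. Exons of Psmd1 overlap those of Htr2b on the other strand, which stood below 0.5 FPKM in every library.

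The partner that docks on Rpn2 moved the same way. Adrm1, which encodes Rpn13 and lies outside the name pattern, had 37.2 and 36.7 FPKM in CD38 KO and 43.7 and 43.1 FPKM in WT. Its log2 change was -0.23 (SE 0.04, limma adjusted p = 0.0283). The call ended without a filter (0.0562), with the replicate block (0.0764), without trend (0.0741) and without WT 1 (0.123), WT 2 (0.122), CD38 KO 1 (0.126) or CD38 KO 2 (0.132), and the alternatives gave an adjusted p of 0.0253 at the lowest and 0.132 at the highest.

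The 6 ATPase genes Psmc1 to Psmc6 encode the motor ring. Psmc3, the Rpt5 ATPase and the most abundant of them, had 108 and 113 FPKM in CD38 KO and 120 and 113 FPKM in WT. Psmc2, the Rpt1 ATPase and the lowest, had 62.6 and 62.6 FPKM in CD38 KO and 62.5 and 61.7 FPKM in WT. Psmc4, the Rpt3 ATPase, was at 66.0 and 66.0 FPKM in CD38 KO and at 70.0 and 72.1 FPKM in WT, and its log2 change of -0.10 (SE 0.04) was the largest of the ring and did not pass (limma adjusted p = 0.172). Limma called 0 of the 6, with 0 at an unadjusted p under 0.05 (14.4% and 30.3% of all tested genes). Psmc3 shares exon positions with Slc39a13 on the other strand, at 39.4 and 41.1 FPKM in CD38 KO and 32.2 and 36.5 FPKM in WT.

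Psmd2 and Psmd4 complete the base. Psmd2, the scaffold Rpn1 and the most abundant gene of the whole 19S particle, had 118 and 120 FPKM in CD38 KO and 128 and 126 FPKM in WT. Psmd4, the ubiquitin receptor Rpn10, had 73.3 and 72.1 FPKM in CD38 KO and 76.9 and 78.6 FPKM in WT. Both genes were lower in both CD38 KO libraries, with log2 changes of -0.10 (SE 0.04) each that did not pass (limma adjusted p = 0.176 and 0.195). Of the 9 base genes 7 had both CD38 KO libraries below both WT libraries and 2 had them above, while 29.5% of all tested genes lay below and 30.4% above in this way.

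The lid frees the substrate from its ubiquitin chain through Psmd14, the metalloprotease Rpn11. Psmd14 had 81.6 and 84.9 FPKM in CD38 KO and 90.6 and 88.6 FPKM in WT (log2 change -0.11, SE 0.04, limma adjusted p = 0.18). Psmd3, the lid subunit Rpn3, had 55.7 and 57.0 FPKM in CD38 KO and 62.1 and 64.2 FPKM in WT. Psmd6, the lid subunit Rpn7, had 63.1 and 64.8 FPKM in CD38 KO and 72.1 and 69.7 FPKM in WT. In each of these 3 genes both CD38 KO libraries lay below both WT libraries. Over the whole lid this held for 5 of 8 genes, beside 29.5% of all tested genes. Among the 31 subunits of core and particle, Psmd3 and Psmd6 came nearest to the threshold without passing. Their log2 changes were -0.16 (SE 0.05) and -0.15 (SE 0.04, limma adjusted p = 0.0722 and 0.0877).

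The other lid genes differed less. Psmd8, the subunit Rpn12, had 84.8 and 86.8 FPKM in CD38 KO and 83.2 and 84.95 FPKM in WT. Psmd12, the subunit Rpn5 and the lowest of all 31 subunits, had 49.5 and 50.7 FPKM in CD38 KO and 51.4 and 53.0 FPKM in WT. Psmd7, Psmd11 and Psmd13, the subunits Rpn8, Rpn6 and Rpn9, had log2 changes of -0.065, -0.03 and 0.06. Psmd13 shares exon positions with Sirt3 on the other strand, which was called higher in CD38 KO (32.2 and 30.8 FPKM, against 23.3 and 24.1 FPKM in WT), and whether the authors' counting used strand is not given in the sources used here. The call of Sirt3 (limma adjusted p = 0.00838) ended without any 1 of the 4 libraries, at 0.0533 to 0.0868. In the lid limma called 0 of 8 genes, with Psmd3 and Psmd6 at an unadjusted p under 0.05 (14.4% and 30.3% of all tested genes).

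Taken by signs, the log2 change was below 0 in 13 of the 17 particle genes, 7 of 9 in the base and 6 of 8 in the lid. Among the 14 core genes it was below 0 in 7. Over all 13064 tested genes it was below 0 in 6506, and in 729 of the 1383 genes in the subunits' level range. The median log2 change was -0.095 in the base and -0.06 in the lid, beside 0.005 in the core and 0.001 over all tested genes. Summed over its 17 genes, the 19S particle had 1290 and 1317 FPKM in CD38 KO and 1375 and 1359 FPKM in WT, and the groups did not overlap. The 20S core summed to 1607 and 1578 FPKM in CD38 KO and 1620 and 1587 FPKM in WT, where they did. The ratio of these sums, core over particle, was 1.25 and 1.20 in CD38 KO and 1.18 and 1.17 in WT. With 2 libraries of each genotype an exact permutation test cannot go below a two-sided p of 0.333, so the difference between core and particle was given no test.

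**Figure D2:**
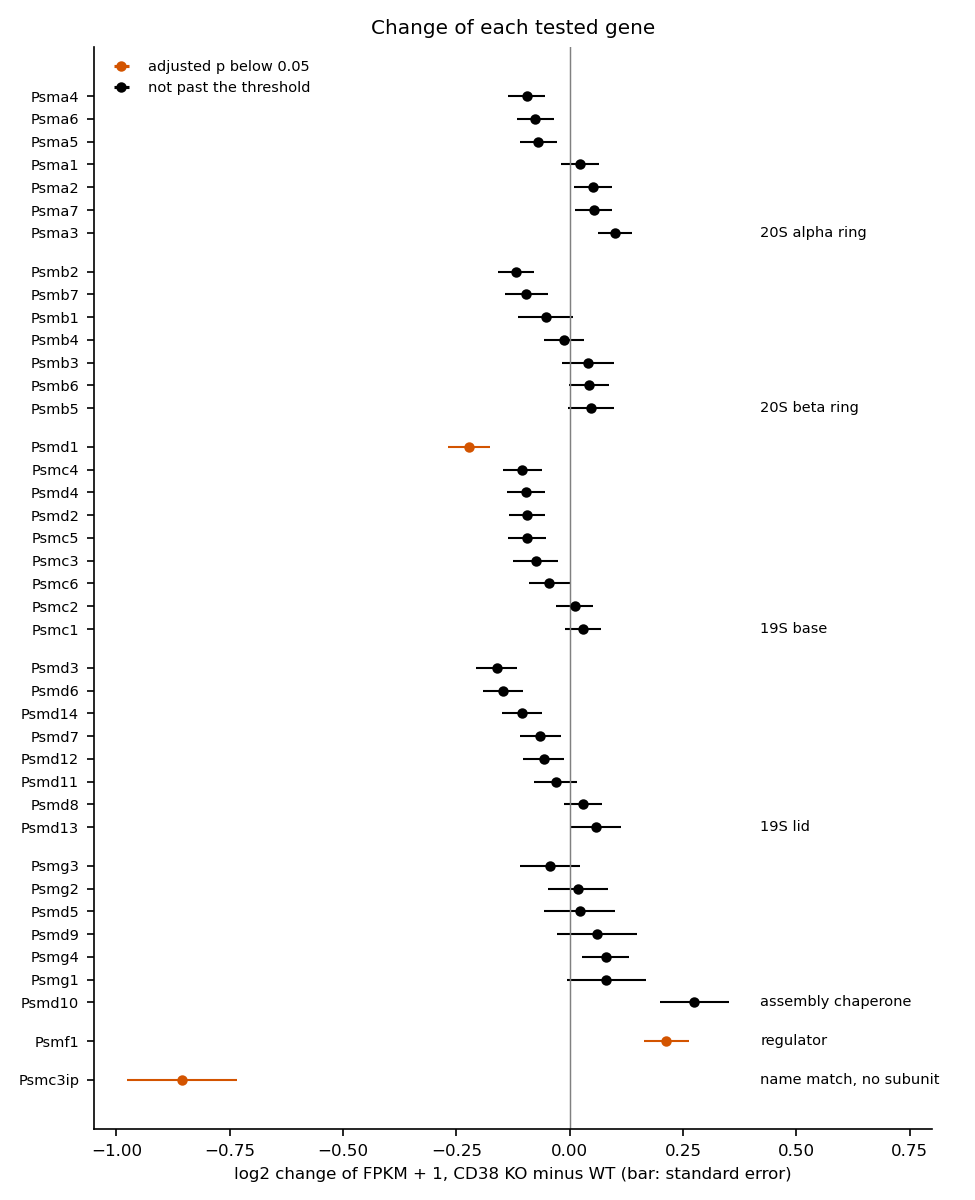
Log2 change of FPKM + 1 (CD38 KO minus WT, bars are standard errors from limma, n = 2 each) for the 40 tested genes, grouped by subcomplex and sorted within it. Points of base and lid lie mostly left of 0 and core genes on both sides of it, and Psmd1, Psmf1 and Psmc3ip, in orange, passed the threshold.

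The order of the subunits by level was much the same in the 2 genotypes. Ranked by mean FPKM within each genotype, 10 of the 31 subunits held the same rank, 8 moved by 1 rank, and the largest move was 4 ranks (Psmd8, which was 13th in CD38 KO and 17th in WT). In CD38 KO the order began with Psma3, Psmb6 and Psma6 and ended with Psmd11, Psmd3 and Psmd12. Of the 30 pairs of neighbours in that order, 22 had overlapping values over the 4 libraries, so most neighbours cannot be ranked against each other. A clear gap separated 5 core genes, Psma3, Psmb6, Psma6, Psmb3 and Psmb4, all at or above 142.6 FPKM in every library, from the rest, which stayed at or below 131.9 FPKM.

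Although core and 19S particle each hold their own subunits in equal number, the transcripts were not at equal levels within either. From lowest to highest gene the mean levels within the core spanned 2.74-fold in CD38 KO and 2.86-fold in WT. Within the particle they spanned 2.38-fold and 2.44-fold. Over all 31 subunits they spanned 3.38-fold in CD38 KO and 3.28-fold in WT, with coefficients of variation of 37.3% and 35.3%. Core genes were the higher ones, with a median of 108 FPKM in CD38 KO and 110 FPKM in WT, while particle genes had medians of 72.7 and 77.8 FPKM. The lid was the most even, at a coefficient of variation of 19.9% in CD38 KO and 18.2% in WT, and the alpha ring the least even at 38.9% and 38.4%. The 41 genes without Psmc3ip made up 0.571% and 0.568% of all FPKM in CD38 KO and 0.581% and 0.581% in WT.

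The 7 assembly chaperone genes matched by name stood well below the subunits that their products help to join. They had a median level of 13.4 FPKM in CD38 KO and 13.3 FPKM in WT. The core maturation factor Pomp, outside the name pattern, was as high as the upper subunits. It had 161.5 and 146 FPKM in CD38 KO and 157 and 142 FPKM in WT. Psmd10, gankyrin, a chaperone of the 19S base known as an oncoprotein in liver, had 10.1 and 9.31 FPKM in CD38 KO and 8.12 and 7.60 FPKM in WT. Its libraries did not overlap, and the log2 change of 0.27 (SE 0.08) was the largest upward among the 40 genes, without passing (limma adjusted p = 0.0706). Psmd9 (p27) and Psmd5 (S5b), the other base chaperones, overlapped between genotypes, with log2 changes of 0.06 (SE 0.09) and 0.02 (SE 0.08).

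Psmg1 to Psmg4 encode PAC1 to PAC4, which build the alpha ring as the pairs PAC1 with PAC2 and PAC3 with PAC4. Psmg1 had 12.4 and 11.3 FPKM in CD38 KO and 11.9 and 10.4 FPKM in WT, and its partner Psmg2, the most abundant chaperone gene, had 28.4 and 26.2 FPKM in CD38 KO and 25.9 and 27.9 FPKM in WT. Psmg3 had 12.4 and 13.5 FPKM in CD38 KO and 13.4 and 13.3 FPKM in WT, and Psmg4 had 24.3 and 23.4 FPKM in CD38 KO and 22.6 and 22.4 FPKM in WT. In each pair the second partner was well above the first in all 4 libraries. Only Psmg4 of the 4 genes was separated between genotypes, beside 59.9% of all tested genes. Limma called 0 of the 7 chaperone genes, with Psmd10 alone at an unadjusted p under 0.05 (14.4% and 30.3% of all tested genes).

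Psmf1 (chromosome 2, 151715812 to 151744186) encodes PI31, first described as an inhibitor of the 20S core and also known to carry proteasomes along axons in neurons. Psmf1 had 26.2 and 26.4 FPKM in CD38 KO and 22.7 and 22.4 FPKM in WT. Replicates agreed closely and the genotypes did not overlap, and the mean rose to 26.3 ± 0.165 FPKM in CD38 KO, against 22.6 ± 0.187 FPKM in WT (SD, n = 2 each). The log2 change was 0.21 (SE 0.05, limma adjusted p = 0.0433). Its call ended without a filter (adjusted p = 0.0692), with median-of-ratios scaling (0.0524), with the replicate block (0.104) or with a block that pairs unlike numbers (0.0543), without trend (0.0831) and without WT 1 (0.14), WT 2 (0.175), CD38 KO 1 (0.166) or CD38 KO 2 (0.17), and the alternatives gave an adjusted p of 0.0391 at the lowest and 0.175 at the highest.

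The tissue forms were near or at 0. Psma8, which takes the place of Psma7 in the proteasome of male germ cells, had 0.520 and 0.636 FPKM in CD38 KO and 0.160 and 0.248 FPKM in WT, where 1 fragment on a transcript of 2000 bases is worth 0.019 to 0.0205 FPKM. Psma7 itself stood at 112 and 114 FPKM in CD38 KO and 108 and 110 FPKM in WT. Psmb11, the beta5 form of the thymus, was listed at 0.00844 FPKM in CD38 KO 1 and at 0 in the other 3 libraries.

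Psmc3ip (chromosome 11, 101091823 to 101095436), whose product HOP2 acts in pairing of chromosomes in meiosis, showed the largest change among the matched names. It had 2.166 and 2.59 FPKM in CD38 KO and 5.58 and 4.66 FPKM in WT. The mean fell to 2.38 ± 0.300 FPKM in CD38 KO, against 5.12 ± 0.653 FPKM in WT (SD, n = 2 each), with a log2 change of -0.86 (SE 0.12, limma adjusted p = 0.00988). The call ended without a filter (0.0789) and without WT 1 (0.0674), CD38 KO 1 (0.0944) or CD38 KO 2 (0.0644), and the alternatives gave an adjusted p of 0.00598 at the lowest and 0.0944 at the highest. Its exons overlap those of Mlx on the other strand, which had 21.9 and 19.6 FPKM in CD38 KO and 24.8 and 22.0 FPKM in WT. The 6 cell cycle markers summed to 13.8 and 15.0 FPKM in CD38 KO and 20.7 and 20.4 FPKM in WT. Of the 5 tested 1, Top2a, passed as lower, beside 6.35% of all tested genes. Top2a had 2.35 and 1.99 FPKM in CD38 KO and 3.95 and 4.66 FPKM in WT (limma adjusted p = 0.0146). At an unadjusted p under 0.05 in limma stood 3 of the 5, beside 30.3% of all tested genes. The part of these markers in the value of Psmc3ip was not tested.

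**Figure D3:**
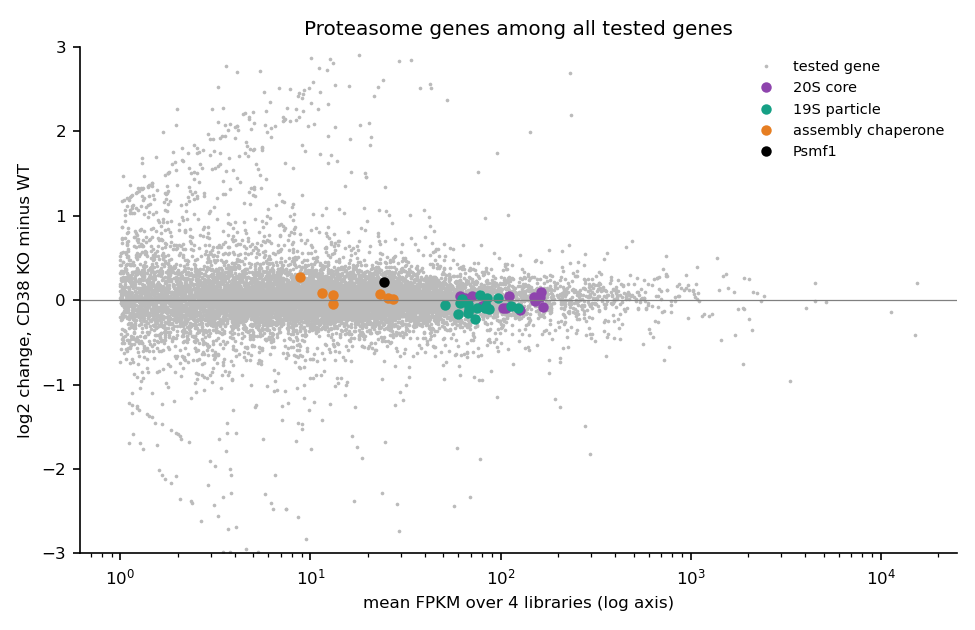
Log2 change (CD38 KO minus WT) against mean FPKM over the 4 libraries, on a log axis, for all 13064 tested genes in grey, with core, particle, chaperone and Psmf1 points in colour. Proteasome genes stay between -0.22 and 0.27, while 29 tested genes lie outside the plotted range of 3 in either direction.

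Cells of the immune system, and other cells under interferon, can exchange the 3 protease subunits for Psmb8, Psmb9 and Psmb10, which form the immunoproteasome and favour peptides for MHC class I. Psmb8, the beta5i subunit, had 67.9 and 60.2 FPKM in CD38 KO and 58.7 and 67.6 FPKM in WT. Psmb9, the beta1i subunit, had 20.8 and 18.6 FPKM in CD38 KO and 18.8 and 18.2 FPKM in WT. Psmb10, the beta2i subunit, had 42.6 and 39.5 FPKM in CD38 KO and 45.7 and 45.9 FPKM in WT. Limma called 0 of the 3, with Psmb10 (log2 change -0.16, SE 0.05, adjusted p = 0.118) at an unadjusted p under 0.05. Among all tested genes 14.4% were called and 30.3% had such an unadjusted p. Beside these genes, the markers of microglia and macrophages summed to 803 and 713 FPKM in CD38 KO and 117 and 104 FPKM in WT, and their part in the immunoproteasome values was not tested.

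Set against its constitutive counterpart, each immune subunit had its own share. The ratio of Psmb8 to Psmb5 was 1.06 and 1.01 in CD38 KO and 0.971 and 1.14 in WT. Psmb9 over Psmb6 gave 0.124 and 0.117 in CD38 KO and 0.118 and 0.115 in WT. Psmb10 over Psmb7 gave 0.424 and 0.40 in CD38 KO and 0.416 and 0.444 in WT. Transcripts of the immune beta5 form were thus about as abundant as the constitutive ones in both genotypes, while those of the immune beta1 form were far below them.

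**Figure D4:**
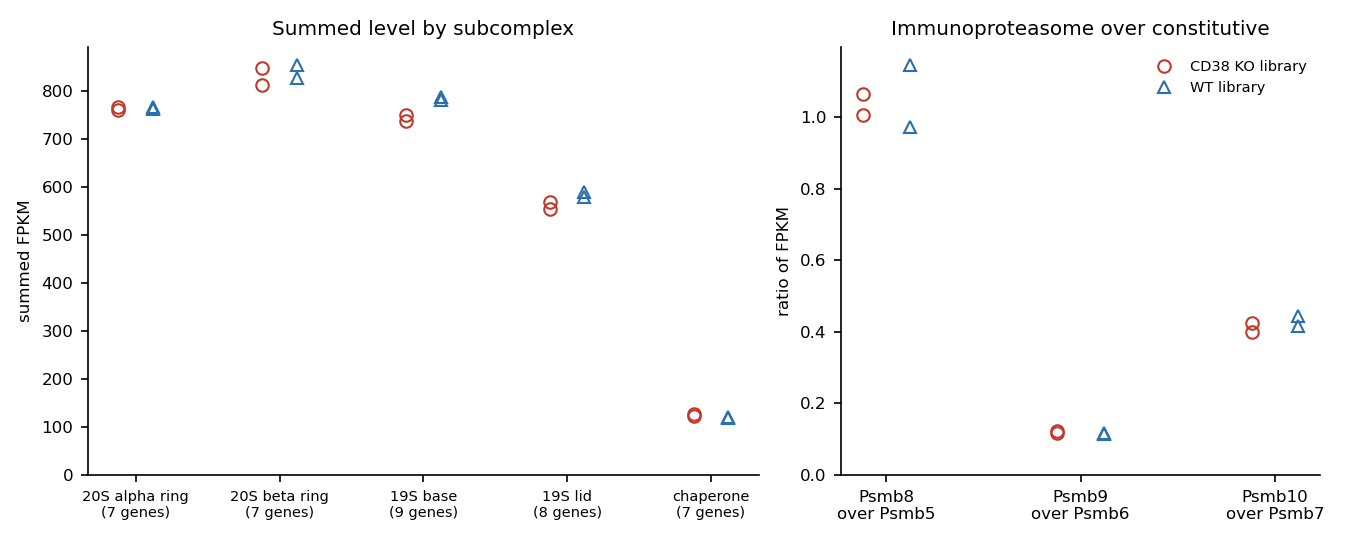
Left, FPKM summed over the genes of each subcomplex in every library. Right, the ratio of each immunoproteasome gene to its constitutive counterpart in every library, with CD38 KO libraries as red circles and WT libraries as blue triangles. Base and lid sums of CD38 KO lie just under those of WT, and the ratios stay near 1, 0.12 and 0.42 in both genotypes.

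Caps other than the 19S particle open the core without ATP. Psme1 and Psme2 encode the alpha and beta subunits of the PA28 cap, which combine in 1 ring. Psme1 had 106 and 95.0 FPKM in CD38 KO and 113 and 115 FPKM in WT, while Psme2 had 124 and 110 FPKM in CD38 KO and 103 and 104 FPKM in WT. The partners lay on opposite sides of WT, with log2 changes of -0.19 (SE 0.06) and 0.17 (SE 0.07), neither of which passed in limma (adjusted p = 0.106 and 0.144). Psme3, of the nuclear PA28 gamma ring, and Psme4, the single chain PA200, had log2 changes of -0.01 and 0.10. Limma called 0 of these 4 genes, with Psme1 and Psme2 at an unadjusted p under 0.05 (14.4% and 30.3% of all tested genes).

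Of the wider ubiquitin and proteasome pathway and of autophagy, 53 genes were listed, 52 were found and tested, and 5 passed (9.62%, beside 14.4% of all tested genes). Ubb, a gene of several ubiquitin units in a row that is known to answer to stress, had 357 and 341 FPKM in CD38 KO and 295 and 279 FPKM in WT (log2 change 0.28, SE 0.05, limma adjusted p = 0.0178). Its call ended without a filter (0.0906), without trend (0.066) and without any 1 of the 4 libraries (0.0646 to 0.124), and the alternatives gave an adjusted p of 0.00935 at the lowest and 0.124 at the highest. Uba1, the main enzyme that activates ubiquitin, had 116 and 117 FPKM in CD38 KO and 123 and 126 FPKM in WT, which did not pass either (limma adjusted p = 0.195).

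Proteins that bring substrates to the proteasome lay mostly below WT without passing. Of the 6 shuttle genes limma called 0, with Ubqln1 and Ubqln4 at an unadjusted p under 0.05, and the median log2 change was -0.10. Ubqln1, a ubiquilin, had 50.2 and 51.1 FPKM in CD38 KO and 54.5 and 55.6 FPKM in WT (log2 change -0.12, SE 0.04, limma adjusted p = 0.14). Vcp, the p97 ATPase that pulls tagged proteins out of membranes and complexes, had 101 and 101 FPKM in CD38 KO and 110 and 114 FPKM in WT, with a log2 change of -0.15 (SE 0.04) that did not pass (limma adjusted p = 0.0724). Limma called 0 of the 6 genes of p97 and its cofactors, with Vcp alone at an unadjusted p under 0.05. Beside these counts, 14.4% of all tested genes were called and 30.3% had such an unadjusted p. Among the 8 other subunits and bound proteins found, Adrm1 passed and the others did not. They include the core maturation factor Pomp, with 161.5 and 146 FPKM in CD38 KO and 157 and 142 FPKM in WT, and the deubiquitinase Usp14, with 45.0 and 49.3 FPKM in CD38 KO and 51.2 and 49.0 FPKM in WT.

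Of 7 listed transcription factors that act on proteasome genes in mammals 1 passed, beside 14.4% of all tested genes. Nfe2l1, the factor that raises proteasome genes when the protease is blocked, had 218 and 205 FPKM in CD38 KO and 201 and 199.7 FPKM in WT (log2 change 0.08, SE 0.05, limma adjusted p = 0.324). Nfe2l2, which encodes the stress factor NRF2, had 258 and 254 FPKM in CD38 KO and 241 and 239 FPKM in WT (log2 change 0.09, SE 0.04, limma adjusted p = 0.169). Stat3 fell to 129 and 132 FPKM in CD38 KO, against 154 and 154 FPKM in WT (log2 change -0.23, SE 0.04, limma adjusted p = 0.0172). The call of Stat3 ended without a filter (0.0549), with the replicate block (0.055), without trend (0.0704) and without any 1 of the 4 libraries (0.0781 to 0.106), and the alternatives gave an adjusted p of 0.0141 at the lowest and 0.106 at the highest.

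Autophagy, the other large route of protein breakdown, had 1 gene higher and 1 lower among 12. Over all tested genes 8.0% passed as higher and 6.35% as lower. Sqstm1, the receptor p62 that hands ubiquitin-tagged cargo to autophagosomes, had 351 and 358 FPKM in CD38 KO and 314 and 308 FPKM in WT (log2 change 0.19, SE 0.04, limma adjusted p = 0.0323). That call ended without a filter (0.0957), with the replicate block (0.0842), without trend (0.112) and without any 1 of the 4 libraries (0.117 to 0.176), and the alternatives gave an adjusted p of 0.0279 at the lowest and 0.176 at the highest. Map1lc3a, which encodes a form of the autophagosome protein LC3, had 52.5 and 57.3 FPKM in CD38 KO and 79.3 and 77.0 FPKM in WT. Its log2 change of -0.50 (SE 0.06, limma adjusted p = 0.00448) passed in all 14 alternatives, at 0.00242 to 0.0472. Its relative Map1lc3b had 95.8 and 101 FPKM in CD38 KO and 93.9 and 89.5 FPKM in WT and did not pass (limma adjusted p = 0.247).

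Proteasome genes are known to be controlled from their promoters, so the RefSeq promoter windows (GRCm38.p6, from 250 bases before to 50 bases after the start) were read, which 34 of the 42 genes had, with 36 windows. On both strands 9 short motifs were searched. The core of the antioxidant response element, TGACNNNGC, to which NFE2L1 and NRF2 bind, was found in 5 of the 34 genes. They are shown here because this element is the known route of joint control of proteasome genes, each in the direction of the motif, with the motif in capitals.
Psmb5 at chr14:54618024-54618052, minus strand: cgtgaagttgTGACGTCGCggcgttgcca
Psmb6 at chr11:70525338-70525366, plus strand: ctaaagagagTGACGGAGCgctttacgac
Psmc6 at chr14:45329587-45329615, minus strand: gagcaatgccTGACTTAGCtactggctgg
Psmd9 at chr5:123228149-123228177, plus strand: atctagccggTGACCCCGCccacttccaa
Psmd12 at chr11:107479278-107479299, minus strand: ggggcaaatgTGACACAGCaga
With the start base as 0, the most upstream base of the motif lies at -47 in Psmb5, -9 in Psmb6 and -31 in Psmd9. It lies at -227 in Psmc6 and -247 in Psmd12, where the motif runs against the gene and this base is its last as printed. Of these 5 genes none passed the test, and their log2 changes stayed within -0.06 and 0.06.

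The share of promoter windows with TGACNNNGC was 13.9% among the members, against 14.2% of the windows of tested genes and 12.4% of all 32851 windows. A CCAAT box stood in 36.1% of member windows, against 37.7% of those of tested genes and 37.4% of all windows. The GC box GGGCGG stood in 52.8% of member windows, against 62.7% of those of tested genes and 35.7% of all windows. By contrast the core of the ETS factor site, CCGGAAG, stood in 38.9% of member windows, against 17.02% of those of tested genes and 8.86% of all windows. The 13 genes with it were Psma6, Psmc1, Psmc2, Psmc6, Psmd2, Psmd4, Psmd6, Psmd11, Psmd12, Psmd13, Psmg1, Psmg3 and the meiotic gene Psmc3ip. Of these Psma6 alone belongs to the 20S core, which holds 14 of the 42 members, and 8 members had no window. A TATA box (TATAAA) was found in 3 genes, namely Psmb4, Psmd1 and Psmd6, or 8.33% of member windows against 7.01% of those of tested genes. The E box CACGTG, the STAT site TTCNNNGAA and the site of nuclear respiratory factor 1 stood in 2 genes each. Each made 5.56% of member windows, against 10.0%, 6.66% and 2.0% of those of tested genes. The budding yeast proteasome element GGTGGCAAA stood in 0 genes, against 0.173% of the windows of tested genes. A match describes letters in the window and is no evidence of binding.

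The windows of the 2 proteasome genes that passed the test are shown with those of 2 protease subunits that did not, so that they can be compared. Capitals mark the core of the antioxidant response element, the CCAAT box, the ETS core, the GC box and the TATA box on either strand, and GC content was 54.3% for Psmd1, 54.7% for Psmf1, 51.7% for Psmb5 and 52.7% for Psmb6.
Psmd1 at chr1:86064369-86064668, plus strand: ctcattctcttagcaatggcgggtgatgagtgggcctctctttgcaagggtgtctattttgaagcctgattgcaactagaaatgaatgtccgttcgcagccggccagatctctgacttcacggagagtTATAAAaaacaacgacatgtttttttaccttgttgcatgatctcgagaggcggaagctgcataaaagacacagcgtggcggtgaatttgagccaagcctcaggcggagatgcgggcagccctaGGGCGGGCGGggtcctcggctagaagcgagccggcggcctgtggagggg
Psmf1 at chr2:151741261-151741560, minus strand: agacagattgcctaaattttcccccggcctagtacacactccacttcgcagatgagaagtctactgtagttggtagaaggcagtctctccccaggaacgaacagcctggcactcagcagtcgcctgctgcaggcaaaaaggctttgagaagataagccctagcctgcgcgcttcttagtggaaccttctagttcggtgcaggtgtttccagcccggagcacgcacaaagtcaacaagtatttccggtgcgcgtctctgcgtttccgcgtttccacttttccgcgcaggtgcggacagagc
Psmb5 at chr14:54617946-54618245, minus strand: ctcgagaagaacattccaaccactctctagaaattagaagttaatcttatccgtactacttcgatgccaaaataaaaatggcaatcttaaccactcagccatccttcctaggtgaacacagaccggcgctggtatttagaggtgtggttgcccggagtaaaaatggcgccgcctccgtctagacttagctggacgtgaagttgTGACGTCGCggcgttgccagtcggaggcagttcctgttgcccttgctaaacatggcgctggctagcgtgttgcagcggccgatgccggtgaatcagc
Psmb6 at chr11:70525107-70525406, plus strand: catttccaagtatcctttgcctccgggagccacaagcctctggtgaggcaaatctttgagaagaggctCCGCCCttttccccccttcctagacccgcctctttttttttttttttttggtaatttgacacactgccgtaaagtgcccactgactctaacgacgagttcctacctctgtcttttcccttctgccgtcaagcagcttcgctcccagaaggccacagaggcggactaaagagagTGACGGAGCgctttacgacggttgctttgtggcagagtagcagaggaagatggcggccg
Psmd1 held a TATAAA at -122 and overlapping GGGCGG matches just after the start, and Psmf1 held none of the 5 motifs. Psmb5 held TGACNNNGC alone, and Psmb6 held TGACNNNGC and a GC box on the other strand. These windows follow RefSeq starts, which can differ from the gene positions given earlier. The Psmf1 window lies inside the gene's span of 151715812 to 151744186. The Psmd1 window begins just before the gene's start at 86064387, so its TATAAA lies inside that gene's span. Other starts of these genes are not shown.

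The members were spread over 16 chromosomes, with 7 on chromosome 11 and 6 on chromosome 2. A protein-coding gene starts on the other strand within 1000 bases upstream of 7 of the 42 members (16.7%), against 10.3% of 12049 tested protein-coding genes. Starts in this count are those of GENCODE, not the RefSeq starts of the windows. These neighbours are Mrpl32 beside Psma2, Ss18l1 beside Psma7, Tbp beside Psmb1, Dnajc2 beside Psmc2, Ftsj3 beside Psmc5, Atg4a beside Psmd10 and Cep76 beside Psmg2. None of the 7 neighbours passed the test (limma adjusted p = 0.173 to 0.913), and their log2 changes lay between -0.14 and 0.16. Copies among annotated pseudogenes, with at least 90% identity over at least 200 bases, were found for 12 members. The 24 copies held at most 1.32% of the level of their parent gene (summed for Psma3), and 1 of them, Gm13835, a copy of Psma3, reached 1 FPKM.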

How the data were processed

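RNA of astrocytes was sequenced from 2 CD38 KO and 2 WT stranded polyA libraries, per the labels' protocols. The authors deposited FPKM values per gene, 1 file for each library, per the file headers. Cufflinks 2.2.1, STAR 2.7.0f, bcl2fastq 2.17 and the build GRCm38 stand in the submitters' processing notes, while the annotation release is not given in the sources used here. Gene positions came from GENCODE M21, which matched 55226 of 55467 gene IDs.

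Since FPKM values are not counts, no count test was run. The 13064 genes whose mean reached 1 FPKM were tested in limma 3.58.1 under R 4.3.3. The model had 1 term, genotype, and took log2(FPKM + 1), with a trend in the moderation and p-values adjusted by the Benjamini-Hochberg method. Fold changes on this scale understate the change of low genes, and percent differences are of mean FPKM without the added 1. Depth was estimated from genes with a single transcript, where 92.1% to 93.1% of values below 10 fragments lay within 0.1 of a whole number. The 31 subunits then rest on about 1180 fragments or more in each library if all came from the longest transcript, which covers counting error only. Copies were sought with BLAST 2.17.0, and tables and plots were made with Python 3.11.15, numpy 2.4.6, pandas 2.3.3 and matplotlib 3.10.9.

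Members, gene lists and tests were chosen with earlier results of these data known. Values in every library were given for genes past the threshold, the protease subunits, the highest and lowest gene of each subcomplex and the largest changes, and for further genes chosen after their values were seen. Alternatives were other values added before the log, other filters, scalings and moderation, the replicate number as a block, and each library left out in turn. The crossed block was added after seeing the data.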

Additional observations from a re-analysis of the deposited data

How the results depend on the processing

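Over all tested genes, 1045 were higher and 830 lower in CD38 KO. These counts were 430 and 312 without a filter and 610 and 427 with the replicate number as a block, and 306 to 458 and 225 to 284 with 1 library left out. Among the matched genes, 1 was higher and 2 were lower. With no filter limma called 0 and 0 of them (15 at an unadjusted p under 0.05), with the replicate block 0 and 1 (6 unadjusted), and without trend 0 and 1 (5 unadjusted). At a filter of 5 FPKM, where Psmc3ip was not tested, 1 was lower. None was higher (0) with median-of-ratios scaling (8 unadjusted) or with the crossed replicate block (7 unadjusted). With 1 library left out 0 were higher and 0 to 1 lower (4 to 6 unadjusted). The base gene called lower, Psmd1, was 1 of 9, and 0 of 9 base genes were called with no filter, with the replicate block, without trend or with 1 library left out (5, 1, 1 and 1 unadjusted).

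The median log2 change of all matched genes was -0.037 and moved to -0.022 without a filter. The chaperone median of 0.061 moved to 0.032 under quantile normalization. With 1 library left out the medians ran from -0.029 to 0.026 for the core, from -0.104 to -0.074 for the base, from -0.081 to -0.055 for the lid and from 0.024 to 0.104 for the chaperones. So the base and lid medians stayed below 0 under every alternative run, and the core median did not keep its sign. The log2 change of 10 genes that did not pass crossed 0 when 1 library was left out. It ran from -0.129 to 0.024 for Psmb1, -0.013 to 0.093 for Psmb3, -0.051 to 0.025 for Psmb4, -0.079 to 0.123 for Psmd5, -0.046 to 0.167 for Psmd9, -0.064 to 0.002 for Psmd11, -0.009 to 0.171 for Psmg1, -0.038 to 0.076 for Psmg2, -0.10 to 0.014 for Psmg3 and -0.079 to 0.123 for Psmb8. The cause was not tested. Of the genes that passed, the log2 change with 1 library left out was -0.258 to -0.188 for Psmd1, 0.205 to 0.221 for Psmf1, -0.965 to -0.746 for Psmc3ip, -0.236 to -0.217 for Adrm1, 0.243 to 0.322 for Ubb, -0.251 to -0.217 for Stat3, 0.172 to 0.203 for Sqstm1 and 0.362 to 0.426 for Sirt3, so the calls of these genes that ended in these fits did so without a change of direction. In each such fit 1 genotype has a lone library, which is assumed to vary like the others.

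The replicate numbers share only a label. The difference between replicates 1 and 2 correlated at -0.161 between CD38 KO and WT across tested genes, so the crossed pairing was also run. Having 2 libraries of each genotype limits all of these comparisons.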
